A study of Drosophila melanogaster with 39 samples.

Results

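Mitochondrial ribosomal protein genes were followed through 39 two-colour spotted arrays of Drosophila melanogaster imaginal discs. The members are the genes whose FlyBase symbol begins with mRpL or mRpS, found through the CG number of each probe with its letter suffix ignored. They came to 64 genes with 76 probes, of 11442 genes and 16361 gene probes in all. The gene table used for the names holds 73 such genes, and for 9 of them (mRpL27, mRpL34, mRpL36, mRpL53, mRpS5, mRpS14, mRpS18A, mRpS21 and mRpS23) no probe was matched here. Of the 64 genes, 43 are named for the large subunit and 21 for the small subunit. By their numbers, 36 were classed as having a bacterial counterpart (called bacterial-type below) and 28 as known only from mitochondrial ribosomes (mitochondria-specific). The split follows the numbers alone, so single genes may be placed wrongly.

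Mitochondria carry their own ribosomes, which translate the few proteins that the mitochondrial genome still encodes, nearly all of them core subunits of the respiratory chain and ATP synthase. Every protein of that ribosome is itself encoded in the nucleus, translated in the cytosol and imported, and many of them descend from bacterial ribosomal proteins while others were added during the evolution of mitochondria. In Drosophila, mutations in such genes are known for slow growth and developmental delay, as in technical knockout (tko, small subunit protein S12) and bonsai (small subunit protein S15).

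The study asked which genes accompany transdetermination, the switch of leg disc cells to a wing fate after Wingless (Wg), a secreted signalling protein, is expressed throughout the leg disc. Each array compared 2 amplified RNA samples, and the series describes the arrays of a comparison as independent replicates. Wild-type samples were OregonR. Whole first-leg discs of single wandering male larvae late in their last instar were set against a reference pool of male and female discs of all 3 leg segments on 4 arrays, and a wing disc against a leg disc of the same male on 9 arrays, with 3 arrays per leg segment. The first-leg discs that expressed Wg came from larvae that carried y,w,hs-flp (a heat-inducible recombinase), the reporter vgBE-GAL4/UASGFP and the elements Actinc5, FRT y+, FRT and wg+. Heat shocks at 60 and 72 h after egg laying induced Wg in over 90% of the disc cells, per the labels, and the discs were taken 3 days later, when these larvae were a day late for metamorphosis and had not yet formed pupae. Whole discs of this kind were set against the reference on 6 arrays.

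Transdetermining (TD) cells were cut from such discs by the GFP of the vg boundary enhancer reporter, and the rest of the disc was cut near its midline into a dorsal part, D(wg), and a ventral part, V(wg). Fragments of 4 to 8 discs were pooled for the comparisons among these kinds of cells. For the comparisons below that include wild-type cells no pool size is recorded here. TD cells were compared with D(wg) cells on 3 arrays, with V(wg) cells on 5 arrays and with dorsal cells of OregonR male discs, D(wt), on 2 arrays. D(wg) was compared with V(wg) on 3 arrays and D(wt) with ventral wild-type cells, V(wt), on 3 arrays. Regenerating tissue was the 3/4 fragment of second-leg discs, kept for 3 to 5 days in the abdomen of adult females and set against the reference on 4 arrays. No heat shock is given for the wild-type samples, so effects of Wg, heat shock and stock cannot be told apart wherever a transgenic sample met a wild-type one. Since tissues were bulk samples, fewer cells of a type and less RNA per cell cannot be told apart either.

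All values are on the log2 scale and lie above 0 where the first-named held more transcript, with each array's median at 0. Between 18.2 and 89.5 percent of gene probes carried a value on an array, but 70.3 to 100 percent of the 64 members did. Counts of called genes come from a least-squares fit to all arrays with limma's moderated test, at an adjusted p under 0.05 (Benjamini-Hochberg over all probes tested). For markers of other tissues, ratios were read from gene lists. Fat body genes, which encode larval storage and serum proteins, had array medians of -3.45 to -1.90 in wild-type first-leg discs against the reference, with 4 of 5 tested genes lower, and of -0.68 to 2.37 in the fragments, where 1 to 5 of them had a value. Muscle genes had array medians below 0 on all 4 first-leg arrays and all 6 Wg arrays, from -0.62 to -0.12. In wing against leg discs 3 of 4 wing genes were higher and 3 of 4 leg genes lower, as the labels of these discs have it. The part of fat body or muscle RNA in the results below was not tested.

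The genes that the study over-expressed (wg) or used to pick cells (vg) check the labels, and wg was added to this check after its values were seen. One probe of wg was higher in Wg discs than in the reference on all 6 arrays, from 0.80 to 1.79, while the other was lower on all 6, from -1.27 to -0.24. vg was higher in wing than in leg discs on all 8 arrays with a value, and higher in TD cells than in D(wg) and V(wg) cells on all 2 and 4 arrays with a value, at 2.51 or more. On the 2 arrays labelled TD against D(wt) both went the other way: vg stood at -1.73 and -1.77 and wg at -5.63 and -3.74, with its other probe at -0.27 on the 1 array that measured it. The libraries of these arrays are therefore called by their labels only, and no direction is drawn from them.

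Across the 9 comparisons made on the arrays, 45 members were tested in every one, and the 64 members gave 53 calls. No call was made for 27 members, 25 were called in 1 comparison, 9 in 2, mRpL24 and mRpL37 in 3, and mRpL28 in 4. Most of these differences were small: 5 member values in the 9 comparisons passed a 2-fold difference, called or not, against a median size of 0.21 on the log2 scale in Wg discs and 0.36 in the fragments. The share of members called higher was above that of all genes in Wg discs (23.8 against 11.0 percent) and in first-leg discs (12.1 against 8.02 percent). The share called lower was above it only on the arrays labelled TD against D(wt), as labelled (8.93 against 5.56 percent). Every other share of the members, higher or lower, was below that of all genes, so the total of calls is not a result about these genes. Most members named below were chosen among called ones with the same sign on all arrays of a comparison. Their agreement of sign is therefore set by the choice and lends them no support. 

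**Figure D1:**
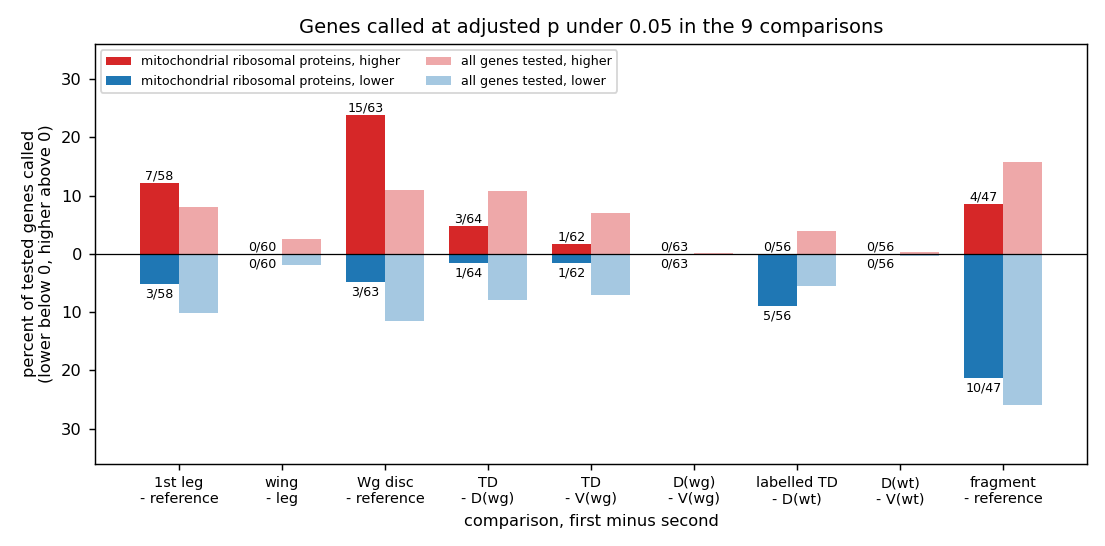
Percent of tested genes called higher (above 0) or lower (below 0) at an adjusted p under 0.05 in each of the 9 comparisons, for mitochondrial ribosomal protein genes (full colour, with called over tested) and for all genes tested (pale). In Wg-expressing discs 15 of 63 members were higher, and in wing against leg discs and both dorsal against ventral comparisons none was called. The arrays labelled TD against D(wt) are drawn as labelled.

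Wg-expressing first-leg discs held more transcript of a set of large subunit genes than the leg disc reference. Of 63 members tested, 15 were higher and 3 lower, beside 11.0 percent of all genes tested that were higher and 11.5 percent that were lower. The large subunit gave 12 of the 15, out of 42 tested, with 1 lower, and the small subunit 3 higher and 2 lower of 21. The members' median was 0.14, against -0.03 over all genes tested, and the per-array medians ran from -0.09 to 0.58. A rise of large subunit genes was not particular to Wg discs: their median was 0.17 there and 0.22 in wild-type first-leg discs against this reference. In wild-type discs 5 large subunit genes were called higher and 2 lower of 38. Between both kinds of disc the median difference of large subunit genes was 0.03.

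mRpL11, a protein at the base of the stalk where translation factors bind in bacterial ribosomes, had the largest value. Its 6 arrays had a lowest ratio of 0.40, a median of 1.05 and a highest of 2.10, and all 6 were above 0. The fitted difference was 1.18 ± 0.18 (SE, 2.26-fold higher, limma adjusted p = 2.7e-05). Mitochondria-specific large subunit genes were also among those called. mRpL50 ranged from 0.32 to 1.23 with a median of 0.83 (fitted 0.81 ± 0.17, limma adjusted p = 0.00115). mRpL37 ranged from 0.44 to 0.99 with a median of 0.64 (fitted 0.68 ± 0.13, limma adjusted p = 0.000581). Neither had an array below 0, which the choice of named genes required. mRpL54 was weaker on 1 array, with a range from 0.06 to 1.24 and a median of 0.62 (fitted 0.67 ± 0.17, limma adjusted p = 0.00712). The other 11 members called higher lay between 0.33 and 0.69, among them mRpL13 at 0.69, a bacterial-type gene with 2 of 6 arrays below 0, mRpS29, the GTP-binding protein known as DAP3 in mammals, at 0.58 and mRpL24, whose bacterial counterpart starts assembly of the large subunit, at 0.43.

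The 3 genes called lower were mRpS26 and mRpS28, small subunit proteins classed by number as mitochondria-specific, and mRpL16, whose bacterial counterpart lies near the peptidyl transferase centre. mRpS26 had ratios from -0.92 to -0.31 with a median of -0.70 (fitted -0.66 ± 0.11, limma adjusted p = 6.77e-05). mRpS28 ranged from -1.14 to -0.21 with a median of -0.62 (fitted -0.63 ± 0.13, limma adjusted p = 0.000863). All arrays were below 0 for both genes, again by the rule of choice. The change of mRpL16 was the smallest of the 3, with a range from -0.69 to -0.06 and a fitted difference of -0.30 ± 0.10 (limma adjusted p = 0.0308).

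The count of higher genes in Wg discs moved with the arrays and terms used, and the reason was not tested. The slide series was taken from the first part of the slide number in each title, and what it stands for is not known here. Of the 6 arrays, 5 bear series 7 and 1 bears series 6. With the series as a term in the fit 2 members were higher and 4 lower of 60 tested. That term gives the 1 array of series 6 about the weight of the other 5 together. The 5 arrays of series 7 alone gave 14 higher and 2 lower. Without array 5, whose member median of 0.58 was the highest, 6 were higher and 3 lower.

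In regenerating 3/4 fragments, against the same reference, 4 of 47 members tested were higher and 10 lower, beside 15.8 percent of all genes tested that were higher and 25.9 percent that were lower. Both counts are smaller shares of the members than of all genes, so they are not a result about these genes as a group. The members' median of -0.01 lay close to that of all genes, -0.08. Bacterial-type proteins of both subunits were among those that fell. mRpL24 had ratios of -1.0, -1.32, -0.95 and -0.51 on the 4 arrays. mRpS2 had ratios of -0.85, -1.07, -0.72 and -0.82. Every array was below -0.50 for both genes. The fitted differences were -0.95 ± 0.14 for mRpL24 (limma adjusted p = 7.67e-06, 1.93-fold lower) and -0.86 ± 0.16 for mRpS2 (limma adjusted p = 7.46e-05, 1.82-fold lower).

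mRpS26 was again lower, with ratios of -1.16, -0.65, -0.20 and -0.48 in the fragments (fitted -0.62 ± 0.13, limma adjusted p = 0.000542). mRpL37 stood at -0.86, -0.67, -0.27 and -0.65 (fitted -0.61 ± 0.16, limma adjusted p = 0.00391), below 0 on each array where all Wg discs were above 0. mRpL28 had values on 3 arrays, -0.20, -0.97 and -0.42 (fitted -0.49 ± 0.14, limma adjusted p = 0.00673). Among the remaining genes called lower, mRpL16 stood at -0.57, mRpL12 of the ribosomal stalk at -0.57 and mRpL45, which in humans lies at the mouth of the exit tunnel near the membrane, at -0.55.

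mRpS28 was higher in the fragments, in contrast to Wg discs. Its arrays read 0.04, 0.67, 0.65 and 1.02 (fitted 0.60 ± 0.16, limma adjusted p = 0.00379), so 1 array was close to 0. The largest rise was that of mRpL33, with 1.00, 1.16 and 2.19 on the 3 arrays that measured it (fitted 1.5 ± 0.36, limma adjusted p = 0.00179, 2.83-fold higher). It lacks a value on the other array, and so falls outside the rule for named genes and was picked after its values were seen. mRpS29 was called higher at 0.85, but its ratios of 0.19, -0.03, 2.38 and 0.84 show that array 3 carries much of it.

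Fragment arrays were thin and this bears on the counts. Of the 4 arrays, 3 held under 5000 values, and 3226 genes could be tested where Wg discs allowed 9200. With each array centred on the 4583 probes that had a value on at least 35 arrays, the median of all genes in this comparison moved from -0.08 to 0.05 and the members called became 10 higher and 9 lower. With the arrays scaled to the same spread, 0 were higher and 3 lower.

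**Figure D2:**
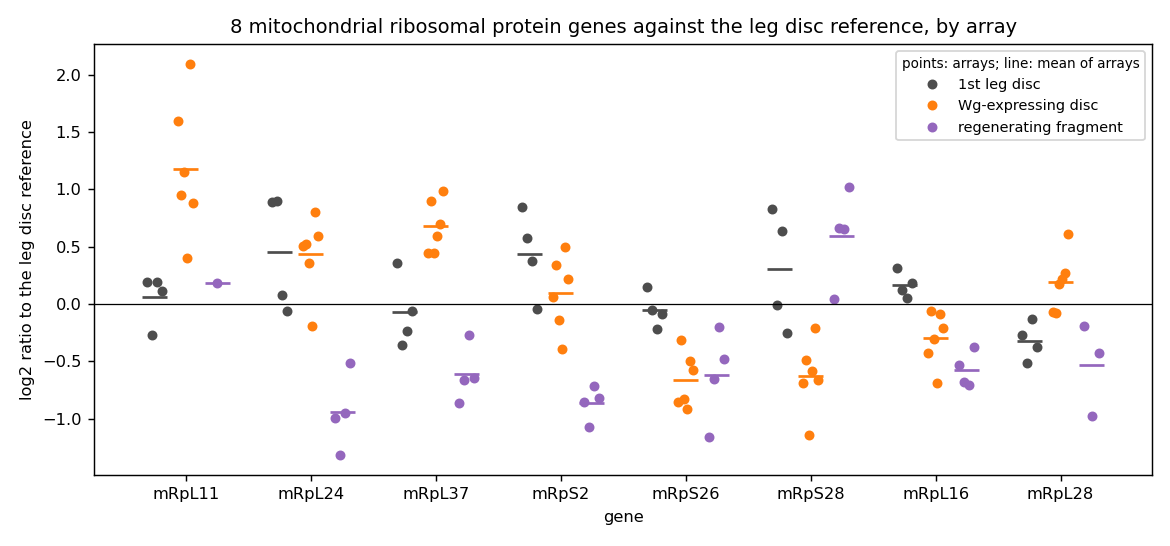
Log2 ratio to the leg disc reference (y axis) of 8 mitochondrial ribosomal protein genes on each array of wild-type first-leg discs (grey), Wg-expressing discs (orange) and regenerating fragments (purple), with the mean of the arrays as a line. mRpL24 and mRpL37 lie below 0 on all 4 fragment arrays, and mRpS28 lies below 0 on all 6 Wg arrays and above 0 on all 4 fragment arrays.

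The difference between Wg discs and fragments was tested within the fit, where the shared reference cancels. Of 47 members tested, 8 were higher in Wg discs and 1 lower, beside 19.2 percent of all genes tested that were higher and 8.81 percent that were lower. The members' shares, 17.0 and 2.13 percent, were below these, so the counts are not a result about the members as a group. mRpL24 differed by 1.38 ± 0.19 (limma adjusted p = 4.12e-06, 2.6-fold) and mRpL37 by 1.29 ± 0.21 (limma adjusted p = 5.59e-05, 2.44-fold). For mRpL37 and mRpL24 the arrays of both tissues did not overlap. mRpS28 differed the other way, by -1.22 ± 0.21 (limma adjusted p = 7.19e-05, 2.34-fold), and its lowest fragment array, at 0.04, lay above the highest Wg array, at -0.21. mRpL24, mRpL37 and mRpS28 were chosen by their differences in this contrast, so their separation is no further support. How many of all genes separate in this way was not counted. Wg discs were of the first leg and fragments of the second leg, on different slide series, so that leg segment, culture, slides and Wg cannot be told apart here. Scaled to the same spread 3 were higher and 1 lower, and centred on the common probes 6 were higher and 2 lower. Without Wg array 4 the counts were 14 higher and 1 lower.

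Wild-type first-leg discs were the control for the same reference. Of 58 members tested 7 were higher and 3 lower, beside 8.02 percent of all genes tested that were higher and 10.1 percent that were lower, and the members' median was 0.19 against -0.02 over all genes. mRpL32 stood at 1.24, 0.92, 0.32 and 1.04 (fitted 0.89 ± 0.24, limma adjusted p = 0.0131). mRpS31, a mitochondria-specific small subunit protein, stood at 1.13, 0.72, 0.76 and 0.33 (fitted 0.67 ± 0.16, limma adjusted p = 0.00699). mRpL50 read 0.81, 1.06, 0.63 and 0.39 (fitted 0.63 ± 0.22, limma adjusted p = 0.0429). All 4 arrays were above 0 for these 3 genes, as they were for mRpS24, with 0.79, 0.36, 0.29 and 0.35 (fitted 0.43 ± 0.12, limma adjusted p = 0.0169). The choice of named genes required this sign agreement. mRpL39, which resembles a threonyl-tRNA synthetase in mammals, had the largest fitted value, 0.93 ± 0.15 (limma adjusted p = 0.000397), from 1.19, 1.21 and 0.57 on the 3 arrays that measured it. It too was named after its values were seen.

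Lower in first-leg discs were mRpL22, whose bacterial counterpart lines the exit tunnel, mRpS30 and mRpL28. mRpL22 varied most, with ratios of -1.48, -1.17, -0.29 and -0.14 (fitted -0.84 ± 0.27, limma adjusted p = 0.0322). mRpS30, which despite its name is placed in the large subunit of mammals, stood at -0.36, -0.89, -0.21 and -0.32 (fitted -0.47 ± 0.17, limma adjusted p = 0.0474). mRpL28 stood at -0.27, -0.52, -0.13 and -0.38 (fitted -0.38 ± 0.12, limma adjusted p = 0.036). These calls are close to the threshold: without array 1 only 1 member was called, without array 2 there were 2, and with slide series as a term 1 was called among 49 tested. With the arrays scaled to the same spread 4 were higher and 0 lower. Beside them stand the fat body ratios given above, which were below 0 on all 4 arrays.

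Set against wild-type first-leg discs, Wg discs had 6 members higher and 3 lower of 58 tested, beside 3.69 percent and 3.43 percent of all genes tested, and the members' median difference was -0.06 against 0.02 over all genes. In the same contrast 3 of 5 fat body genes were higher, with a median of 2.96, while against the reference 0 of 6 were called in Wg discs, with array medians from -0.92 to 0.25. Their part in the members' differences was not tested. mRpL11 differed by 1.17 ± 0.28 (limma adjusted p = 0.0122, 2.24-fold), and the first-leg discs lay between -0.27 and 0.19. mRpS10 differed by 1.11 ± 0.31 (limma adjusted p = 0.0281), although its ratios in Wg discs spread from -0.69 to 1.51. Lower in Wg discs were mRpS28 by -0.85 ± 0.21 (limma adjusted p = 0.0122) and mRpS26 by -0.57 ± 0.18 (limma adjusted p = 0.0473). The 2 groups of arrays share no slide series, and slides and tissue cannot be told apart. With the arrays scaled to the same spread 1 was higher and 2 lower, and without first-leg array 2 the counts were 0 and 2. Without first-leg array 1, or without Wg array 1, 5 or 6, the calls came to 4 or 5.

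Fragments differed from first-leg discs in 1 direction. None of 46 members tested was higher and 13 were lower, beside 6.08 percent and 14.8 percent of all genes tested, with a members' median of -0.27 against -0.20 over all genes. mRpL24 was lower by -1.34 ± 0.21 (limma adjusted p = 6.3e-05, 2.54-fold) and mRpS2 by -1.22 ± 0.22 (limma adjusted p = 0.000371, 2.33-fold). The other 11 lay between -1.16 and -0.52 and included mRpL32, mRpL39 and mRpS31, which had been higher in first-leg discs than in the reference. Without first-leg array 1, 6 were lower, and without first-leg array 2, or fragment array 3, 8 were called. Centred on the probes common to most arrays, 3 were higher and 9 lower.

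TD cells showed few differences in these genes from their neighbours in the same discs. Against D(wg) cells 3 of 64 members were higher and 1 lower, beside 10.8 percent of all genes tested that were higher and 7.87 percent that were lower. mRpL44, a large subunit protein with a ribonuclease III-like fold, had ratios of 0.48, 0.70 and 0.82 (fitted 0.75 ± 0.24, limma adjusted p = 0.0347). mRpL28 had ratios of 0.34, 0.42 and 0.58 (fitted 0.48 ± 0.14, limma adjusted p = 0.0195). mRpL38, which carries a fold of the phosphatidylethanolamine-binding family, was lower at -0.37, -0.91 and -0.41 (fitted -0.57 ± 0.16, limma adjusted p = 0.016). For all 3 genes the arrays kept 1 sign, which the choice of named genes required. The count rests on few arrays: without array 2 no member was called, without array 1 there were 2, and from these 3 arrays alone none was called with the dye term in the fit. Scaled to the same spread 2 were higher and 0 lower.

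Against V(wg) cells 1 of 62 members was higher and 1 lower, beside 6.98 percent and 6.99 percent of all genes tested. mRpL38 was the lower one, at -0.75, -0.27, -0.20, -0.74 and -0.32 (fitted -0.46 with an SE of 0.125, limma adjusted p = 0.0134), below 0 on all 5 arrays. mRpL28 was the higher one, but its ratios of 0.86, 0.73, 0.07, -0.09 and -0.05 split between 2 high arrays and 3 near 0 (fitted 0.32 ± 0.11, limma adjusted p = 0.0473). The same TD tissue may lie behind both comparisons, as the labels do not say whether extracts were shared. Without array 1 no member was called. The call of mRpL28 was also lost without array 2 or array 3, and that of mRpL38 without array 4. Centred on the common probes 2 were higher and 1 lower.

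The arrays labelled TD against wild-type dorsal cells, D(wt), had no settled direction, since wg and vg ran against the label as given above. Taken as labelled, 0 of 56 members were higher and 5 lower in the library labelled TD, beside 3.97 percent and 5.56 percent of all genes tested, and the members' median was -0.23 against -0.04. With the samples exchanged every sign turns, so that 5 were higher and 0 lower with a median of 0.23, and with the ratios turned but the dyes kept 1 was higher and 1 lower with a median of -0.03. The 5 genes are all of the large subunit, and their values follow as labelled.

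mRpL14, which with mRpL19 faces the small subunit in bacterial ribosomes, had ratios of -1.22 and -1.86 (fitted -1.75 ± 0.29, limma adjusted p = 0.000438, a 3.36-fold difference). mRpL19 had ratios of -0.88 and -0.46 (fitted -0.86 ± 0.20, limma adjusted p = 0.00675). mRpL24 had ratios of -0.58 and -0.83 (fitted -0.82 ± 0.21, limma adjusted p = 0.0129). Both arrays had the same sign for each of these genes, as they did for mRpL11, at -0.80 and -1.08 (fitted -1.03 ± 0.32, limma adjusted p = 0.0374), and for mRpL37, at a fitted -0.77. For all but mRpL37 the choice of named genes required this. With the ratios turned and the dyes kept, mRpL14 stood at 1.34 with an adjusted p of 0.00452, while mRpL11, mRpL19 and mRpL24 lost their calls.

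Only 2 arrays made this comparison, both with the library labelled TD in the same dye. The dye effect therefore came from the other arrays, where the members' dye term had a median of -0.12 against -0.03 over all genes. Fitted on the 2 arrays without a dye term, 5 members were higher and 6 lower as labelled, and without either array 1 member was called. Centred on the common probes the split was 1 higher and 4 lower.

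**Figure D3:**
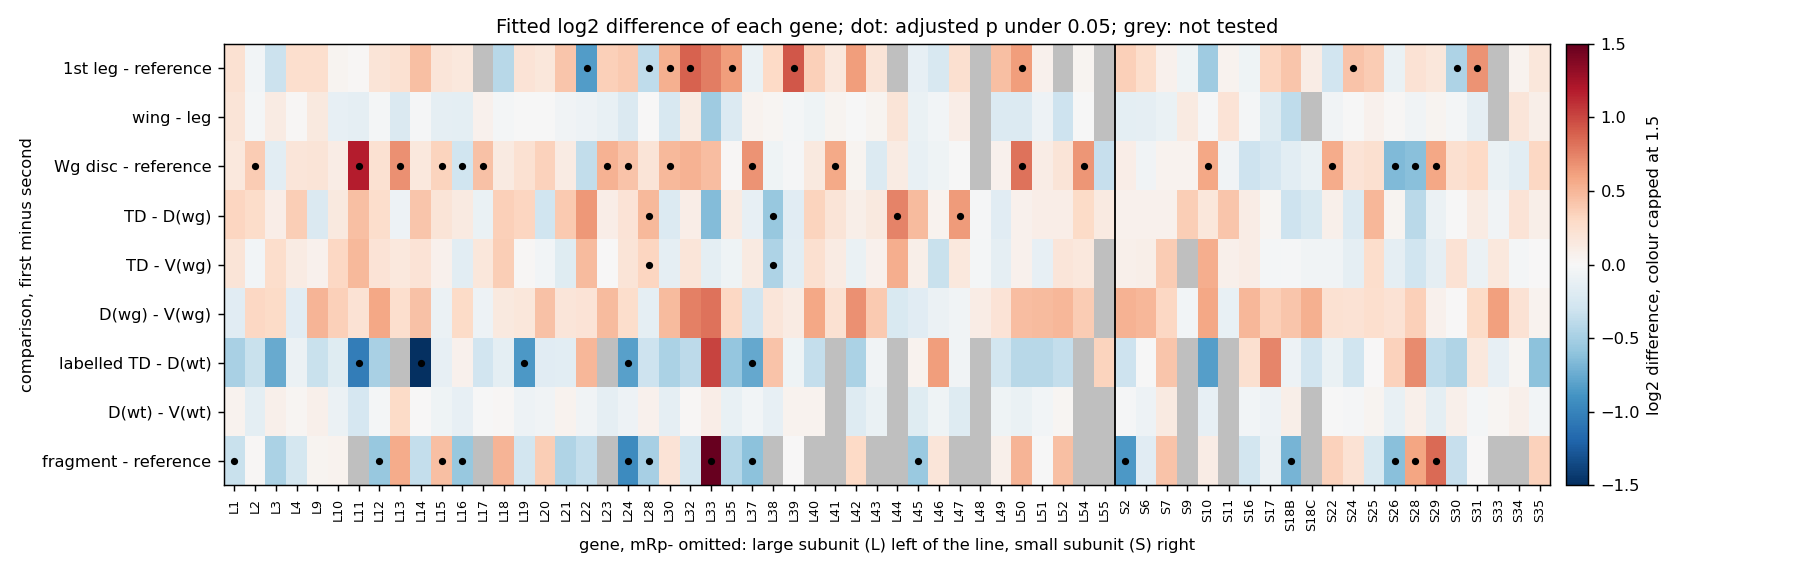
Fitted log2 difference (colour, capped at 1.5) of all 64 mitochondrial ribosomal protein genes (columns, large subunit left of the line) in the 9 comparisons (rows), with a dot where the adjusted p was under 0.05 and grey where too few arrays had a value. The 5 dots of the arrays labelled TD against D(wt), drawn as labelled, are all in the large subunit.

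Wing against leg discs, the leg segments and dorsal against ventral cells gave no call. In wing against leg discs 0 of 60 members passed, beside 2.58 percent of all genes called higher and 1.99 percent called lower. An unadjusted p under 0.05 was found for 4 members (6.67 percent), beside 11.3 percent of all genes. The lowest of these p-values belonged to mRpS18B, at -0.38 ± 0.15 (limma adjusted p = 0.245). With the arrays scaled to the same spread 1 member was higher and 1 lower. No member was called between leg segments either, where 0.0174, 0.0 and 0.0 percent of all genes were called in the pairs as ordered below. In prothoracic against mesothoracic legs 1 member had an unadjusted p under 0.05, beside 0.92 percent of all genes. In prothoracic against metathoracic and in mesothoracic against metathoracic legs 0 members had one, beside 0.786 and 0.771 percent of all genes.

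Dorsal and ventral cells were compared both in Wg-expressing and in wild-type first-leg discs. In D(wg) against V(wg) 51 of 63 members had a fitted value above 0, with a median of 0.26 beside -0.01 over all genes tested. None of the 63 passed the threshold, where 0.0686 percent of all genes were called higher and 0.233 percent lower. An unadjusted p under 0.05 was found for 15 members (23.8 percent), beside a similar 20.4 percent of all genes tested. All 15 were higher in D(wg). The lowest p belonged to mRpS2, with a fitted 0.52 ± 0.18 from ratios of 0.37, 1.18 and 0.16 (limma adjusted p = 0.133), and the next to mRpL12 at 0.58 ± 0.20 (limma adjusted p = 0.134). Without array 3 the test called 4 members, all higher.

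In D(wt) against V(wt) the members sat near 0. Of 56 tested, 0 were called, beside 0.357 percent of all genes called higher and 0.34 percent called lower. An unadjusted p under 0.05 was found for 0 members, beside 3.01 percent of all genes. Fitted values ran from -0.25 to 0.29 with a median of -0.04. The per-array medians of the members were 0.30, 0.48 and 0.11 in the D(wg) comparison and -0.16, -0.07 and -0.04 in the D(wt) comparison, so that no arrays overlap. Gene by gene the difference between both comparisons was not called for any of 56 members, beside 0.0352 percent of all genes called higher and 0.0529 percent lower. An unadjusted p under 0.05 was found for 3 members (mRpL30, mRpL12 and mRpS2), or 5.36 percent, beside 10.2 percent of all genes. The median difference was 0.32 against -0.05 over all genes. In D(wg) against V(wg) respiratory chain genes had a median of 0.29, cytosolic ribosomal proteins of 0.33 and genes of the mitochondrial genome of -1.0, with none of them called. In D(wt) against V(wt) the medians of these lists were -0.02, -0.03 and 0.26. The median differences between both comparisons were 0.25, 0.36 and -1.26, in the same order. For genes of the mitochondrial genome the array medians were 0.95, -2.86 and -0.88 in D(wg) against V(wg). In D(wt) against V(wt) they were 0.46, 0.52 and -0.36. Their sign thus changed between arrays in both comparisons.

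**Figure D4:**
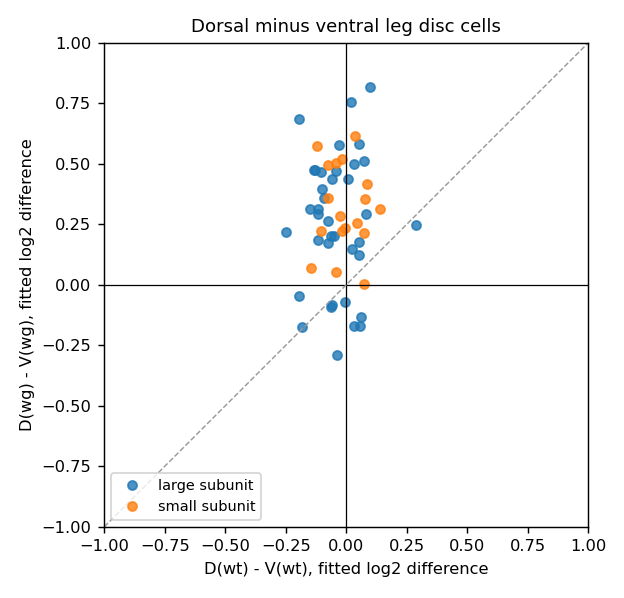
Fitted log2 difference of dorsal minus ventral cells in wild-type discs (x axis) and in Wg-expressing discs (y axis) for each mitochondrial ribosomal protein gene tested in both, by subunit, with the line of equal values dashed. The members spread along the y axis around a median of 0.26 and stay near 0 on the x axis, where the median is -0.04.

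Single genes took different directions in different tissues. mRpL28 was lower than the reference in first-leg discs and in fragments but higher in TD cells than in D(wg) and V(wg) cells. mRpL37 and mRpL24 were higher in Wg discs than in the reference and lower in fragments than in the reference. mRpS28 was lower in Wg discs and higher in fragments. With the arrays labelled TD against D(wt) left out, these 4 were the members called in both directions. Of the comparisons behind these calls, 3 share the reference pool, so their calls are not independent.

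Within this spread the members tended to move together from array to array. Over at least 20 arrays the ratio of a member correlated with the median of the other members at a median r of 0.57 (62 members, range 0.06 to 0.88), beside a median of 0.00 for 6664 other genes. This is a description over arrays, which share slides, dye orientation and samples. mRpL51, mRpL9, mRpL49 and mRpL12 followed the others most closely, with r of 0.88, 0.82, 0.82 and 0.81. At the other end were mRpL45 at 0.06, mRpL44 at 0.18, mRpL28 at 0.21, mRpL22 at 0.23 and mRpS30 at 0.26. Of these 5 loosely tied genes mRpL28 was called in 4 comparisons, and mRpL45, mRpL44, mRpL22 and mRpS30 in 1 each. Among all 64 members, 37 were called at least once. The correlations and the calls come from the same arrays, and a link between correlation and calls was not tested.

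The array medians of the members lay between -0.56 and 0.65. They had the same sign as the median of respiratory chain genes on 29 of 39 arrays and as that of cytosolic ribosomal proteins on 28. Arrays of 1 comparison differed among themselves: with TD against V(wg) cells, the members' medians were -0.03, 0.65, 0.09, -0.51 and -0.17. A whole-list shift of this size on single arrays is larger than the fitted median of the members in any of the 9 comparisons.

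**Figure D5:**
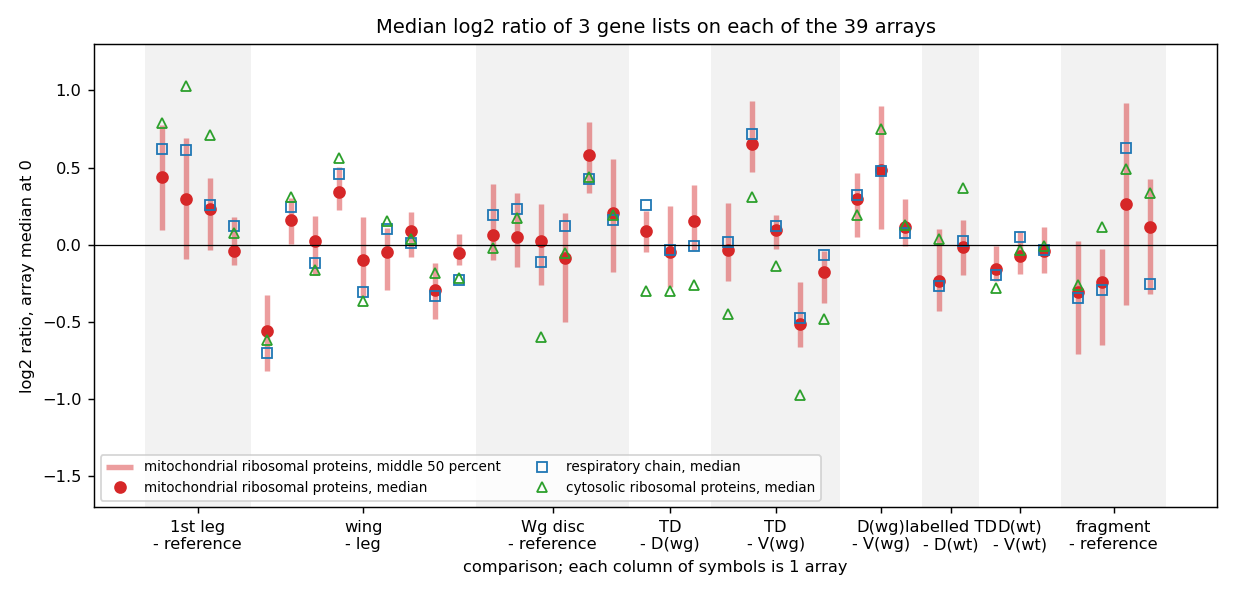
Median log2 ratio of the mitochondrial ribosomal protein genes on each of the 39 arrays (red points, bars for the middle 50 percent of the genes), with the medians of respiratory chain genes (blue squares) and cytosolic ribosomal protein genes (green triangles), by comparison. The members' medians spread from -0.56 to 0.65 and change sign between arrays of most comparisons, while the 3 D(wg) against V(wg) arrays all lie above 0.

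A pair of further small subunit genes do not carry the mRp name. bonsai was lower in fragments on all 4 arrays, at -1.28, -0.68, -1.18 and -0.51 (fitted -0.92 ± 0.12, limma adjusted p = 8.81e-07), and, as labelled, in TD against D(wt) cells at -0.45 and -0.43 (fitted -0.55 ± 0.18, limma adjusted p = 0.0435). It differed between Wg discs and fragments by 1.07 ± 0.16 (limma adjusted p = 1.08e-05). tko was called in none of the 9 comparisons.

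Other genes that serve the mitochondrial ribosome or use its products were read from gene lists. Of mitochondrial translation factors and tRNA synthetases, 2 of 24 tested were higher and 4 lower in Wg discs, with a median of -0.13. Of all genes tested there, 11.0 percent were higher and 11.5 percent lower. In TD against D(wg) cells 3 of 21 were higher and 0 lower, beside 10.8 and 7.87 percent of all genes tested. These counts are not a result about the list. In TD against D(wg) cells mEFG1, the factor that moves the ribosome along the mRNA, was higher by 1.62 ± 0.32 (limma adjusted p = 0.00208). There mEFTu1, which brings charged tRNAs, was higher by 0.72 ± 0.19 (limma adjusted p = 0.0096) and the recycling factor mRRF1 by 0.57 ± 0.17 (limma adjusted p = 0.0184). Against V(wg) cells 2 of 20 were higher and 1 lower, beside 6.98 and 6.99 percent of all genes. The higher ones were mEFG1 (1.17 ± 0.28, limma adjusted p = 0.00618) and mRRF1 (0.59 ± 0.13, limma adjusted p = 0.00236). mEFTs was lower (-0.69 ± 0.13, limma adjusted p = 0.000715), while mEFTu1 was not called. Genes named here were picked from the list after their values were seen. On the arrays labelled TD against D(wt), whose direction is unsettled, mEFTu1 stood at -0.97 ± 0.24 (limma adjusted p = 0.00833). It was lower in fragments by -1.11 ± 0.16 (limma adjusted p = 3.99e-06). Respiratory chain and ATP synthase genes had 8 of 72 higher and 1 lower in Wg discs, or 11.1 and 1.39 percent. Their median was 0.14, the same as that of the members. In first-leg discs 13 of 61 were higher and 0 lower, with a median of 0.31, beside 8.02 and 10.1 percent of all genes tested. Cytosolic ribosomal proteins were higher for 43 of 83 genes in first-leg discs (51.8 percent), with a median of 0.58. In Wg discs 5 of 89 were higher and 4 lower (5.62 and 4.49 percent), with a median of 0.02.

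For 9 members more than 1 probe was on the array. Probes of a gene gave the same sign in 64 of 71 pairs of values over the comparisons, with a median difference of 0.06 and a largest of 0.54 on the log2 scale. In 2 pairs the calls differed. The second probe of mRpL32 was called higher in Wg discs at 0.59 where the one used stood at 0.52, and another probe of mRpS16 was called lower in fragments at -0.59 where the one used stood at -0.28.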

How the data were processed

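Two-colour arrays of amplified disc RNA were analysed. In the values the authors deposited, log2 ratios, the first-named sample is the denominator, per the labels, which give the ratio but not the log base (read from the values). Normalisation, filters and genome build are not given in the sources used here. Ratios were multiplied by -1 and each array centred on its median over 16361 probes, without 144 control spots. Probe names were matched to a table of RefSeq genes, with 12612 matched by current tag, 740 by older tag, 2010 by synonym and 11 by symbol, with 508 matching none and 456 several. The probe with most values stands for its gene.

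A least-squares fit of every probe over 39 arrays had 11 group coefficients and a dye orientation term. It took the place of the planned lmFit and keeps standard errors of contrasts exact despite missing values. Variances were moderated with limma 3.58.1 (prior degrees of freedom 3.567) in R 4.3.3 and the R package data.table (version 1.17.8). A test needed values on 66.7 percent of a comparison's arrays and on no fewer than 2 of them. It was two-sided, with Benjamini-Hochberg adjustment and a threshold of 0.05. Plots were drawn with matplotlib 3.10.9 and tables made with pandas 2.3.3 and numpy 2.4.6 under Python 3.11.15. p-values measure a spread between arrays that was estimated once per probe over all 39 arrays and then moderated. For comparisons with 2 or 3 arrays this spread rests largely on the arrays of other comparisons.

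On simulated data the fit called 33 percent of probes given a log2 change of 0.5 among 12253 in Wg discs, 18 percent of 3885 in fragments and 12 percent of 9190 in TD against D(wg). For a change of 1 the shares were 79, 78 and 67 percent, and 1.8, 1 and 10.2 percent of the calls were false. False calls were 8.5 percent among 7755 probes for the arrays labelled TD against D(wt) and 13 percent among 3832 for fragments against first-leg discs, above the threshold applied. No intensities were used, so signal over background is unknown.

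Members and lists were chosen with earlier results of these data known. Named members were, in each comparison, the 4 highest and 4 lowest called with a value and the same sign on all arrays (in contrasts, the 2 highest and 2 lowest with a value on all), and members called in at least 4 comparisons. Alternatives were the deposited centring, equal spread, values on every array, the arrays of a comparison alone, averaged probes, slide series, leaving out arrays and 5 added after seeing the data (common-probe centring, own arrays with the dye term, no thin fragment arrays, and both arrays labelled TD against D(wt) with ratios turned or samples exchanged).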

Additional observations from a re-analysis of the deposited data

Results flagged for a closer look

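One array stood apart in a called member. mRpS24 read 0.79 on array 1 of the wild-type first-leg discs, while the other arrays lay between 0.29 and 0.36. Of 26 groups of arrays examined in this way, chance alone would pick about 1 in 20.

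Some members differed between tissues by a test of the difference itself, with the values in log2 units. Between Wg-expressing and wild-type first-leg discs these were mRpL11 (1.17), mRpS10 (1.11), mRpS28 (-0.85) and mRpS26 (-0.57). Between fragments and first-leg discs they were mRpL24 (-1.34) and mRpS2 (-1.22). Between Wg discs and fragments they were mRpL24 (1.38), mRpL37 (1.29) and mRpS28 (-1.22).

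The median of the members lay above 0 on every array of D(wg) against V(wg) cells and below 0 on every array of D(wt) against V(wt) cells, with a median difference of 0.32. The medians of cytosolic ribosomal proteins had the same signs on all these arrays, with a median difference of 0.36, so the pattern is not particular to the members. Respiratory chain genes had a median difference of 0.25, with 1 of 3 D(wt) arrays above 0. The difference over the whole set of members was not tested.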

How the results depend on the processing

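Few arrays, thin fragment arrays and slide series limit the calls. Of 225 alternative counts of called members 51 moved by over 1.5 times. Of 225 medians 3 moved beyond the spread between arrays: 1 in D(wt) against V(wt), where leaving out arrays gave -0.0804 to 0.0237, and 2 in the arrays labelled TD against D(wt). Within that spread the Wg disc median ran from 0.02 to 0.21, and medians changed sign in 3 of 18 alternatives for wing against leg, 2 of 12 for fragments, 1 of 12 for TD against V(wg), 2 of 19 for Wg against first-leg discs and 4 of 15 for each pair of leg segments. With ratios turned, the arrays labelled TD against D(wt) gave 2 calls, a median of -0.0262, and mRpL14 at 1.34, mRpL11 at 0.85, mRpL19 at 0.48 and mRpL24 at 0.60. With samples exchanged these were 5, 0.2336, 1.75, 1.03, 0.86 and 0.815. Among 38 named values the call and direction were kept in 397 of 533 alternatives, the direction turned in these 8 only, and 9 were called in all. With the arrays scaled to the same spread the members called were 4 in first-leg discs, 2 in wing against leg, 2 in TD against D(wg), 3 in TD against D(wt), 3 in fragments, 3 in Wg against first-leg discs, 3 in fragments against first-leg discs and 4 in Wg discs against fragments. From the arrays of a comparison alone without the dye term they were 4, 1 and 9 in first-leg, wing and Wg discs, 1, 0 and 11 in TD cells against D(wg), V(wg) and D(wt), 3 in fragments, and 3 and 4 in Wg discs and fragments against first-leg discs. With the dye term these were 0 in first-leg discs, 0 and 0 in TD against D(wg) and V(wg), 3 in fragments, and 1 and 3 in the last pair. A slide series term gave 1 in first-leg and 6 in Wg discs, 2 and 7 in Wg discs and fragments against first-leg discs, and 5 in Wg discs against fragments. Without the 3 thin fragment arrays, 2 were called in fragments, 1 against first-leg discs and 4 in Wg discs against fragments, and the lone array was then assumed to vary like the other groups. Leaving out single arrays gave 1 to 10 calls in first-leg discs, 9 to 17 in Wg discs, 0 to 3 in TD against D(wg), 0 to 3 against V(wg), 1 to 1 against D(wt), 0 to 4 in D(wg) against V(wg), 10 to 20 in fragments, 2 to 8 and 6 to 14 in Wg discs and fragments against first-leg discs, and 7 to 15 in Wg discs against fragments. The cause was not tested. The own-array fit with the dye term was not run for TD against D(wt), where both arrays have the same orientation. No paired analysis was possible because the labels give no replicate numbers shared between comparisons.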

Other observations

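Of the genes for protein import and folding in mitochondria, 6 of 18 tested were higher and 0 lower in TD against D(wg) cells. Of all genes tested there, 10.8 percent were higher and 7.87 percent lower. Against V(wg) cells 2 of 16 were higher and 0 lower, beside 6.98 and 6.99 percent of all genes tested. Against D(wg) cells Hsp60A, the mitochondrial chaperonin, was higher by 1.23 ± 0.27 (limma adjusted p = 0.00344). Tom40, the channel of the outer membrane, was higher there by 0.80 ± 0.16 (limma adjusted p = 0.00196). Tim10, a small chaperone of the space between both membranes, was higher by 0.76 ± 0.17 (limma adjusted p = 0.00398). On the arrays labelled TD against D(wt), whose direction is unsettled, 0 of 16 were higher and 3 lower as labelled. Of all genes tested, 3.97 percent were higher and 5.56 percent lower there. Tim10 was among the lower ones, at -0.83 ± 0.22 (limma adjusted p = 0.0146). In fragments 0 of 14 were higher and 5 lower, where 15.8 percent of all genes were higher and 25.9 percent lower, among them Hsp60A at -1.17 ± 0.27 (limma adjusted p = 0.00111) and Hsc70-5, a mitochondrial chaperone of the Hsp70 family, at -0.75 ± 0.18 (limma adjusted p = 0.00167). In Wg discs 5 of 21 were higher (Tim17a1 at 1.10, Roe1 at 0.87, blp at 0.85, Tim10 at 0.63 and Phb2 at 0.41) and 1 lower, Tom40 at -0.57 ± 0.11 (limma adjusted p = 0.000598), where 11.0 percent of all genes were higher and 11.5 percent lower. These genes were picked from the list after their values were seen.

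Of the 12 genes of the mitochondrial genome, all were tested on the arrays labelled TD against D(wt). As labelled their median was 1.53 and 1 was called (mt:COX1 at 1.98 ± 0.56, limma adjusted p = 0.024). Of all genes tested, 3.97 percent were called higher there. TFAM, which packages mitochondrial DNA, was lower in fragments by -1.18 ± 0.21 and mtSSB, which binds it as a single strand, higher by 1.45 ± 0.30 (limma adjusted p = 4.7e-05 and 0.000373).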
